A study of Mus musculus with 6 samples.

Results

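Protocadherins are cell-surface proteins of the cadherin superfamily, and the H3K9me3 regions assigned to their genes were examined in mouse endothelial progenitor cells (EPCs). H3K9me3, trimethylated lysine 9 of histone H3, is a mark of repressed chromatin. The members were all regions on chromosomes 1 to 19 whose gene name, as the authors assigned it, starts with Pcdh. There were 205 such regions naming 50 genes, out of 58511 regions in the whole series and 58493 in the table of M-EPC and OVX-EPC. Of these, 59 belonged to 43 genes of the clustered families on chromosome 18 (10 Pcdha, 32 Pcdhb and 17 Pcdhg regions), and 146 belonged to 7 genes outside the clusters.

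EPCs were Sca-1+/CD31+ cells sorted with magnetic beads from the bone marrow of C57BL/6J mice aged 8 weeks and grown in EGM-2 medium, without any further treatment. The 3 groups of 2 libraries were M-EPC from males, F-EPC from females with ovaries and OVX-EPC from females whose ovaries were removed at about 35 days of age. The study asked which chromatin differences between the sexes do not depend on estrogen. M-EPC and OVX-EPC differ in both sex and surgery, which cannot be told apart in that comparison. H3K9me3 was profiled by CUT&Tag, in which an antibody brings the Tn5 transposase to the mark and the cut DNA is sequenced. Per the study's methods, harvested cells were frozen and put aside as duplicate vials, and separate mice or cultures are not named for the 2 libraries of a group, so p-values measure only the spread between these libraries. Gene expression was not among these files, so the EPC label could not be checked against its markers.

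The 4 M-EPC and OVX-EPC libraries held between 501237 and 573821 reads in regions. F-EPC values were used on chromosomes 1, 10 to 15 and 16 up to position 30557137 (mm10), where the libraries of the 3 groups held between 200296 and 288353 reads. This part covered 142 of the 205 Pcdh regions, all of them on chromosomes 10 and 14. Reads on the X chromosome made up 1.20% of the total in both M-EPC libraries and 2.40% and 2.43% in the OVX-EPC libraries. Regions of Kdm5d, a gene of the Y chromosome, held 13 and 12 reads in M-EPC against 0 and 0 in OVX-EPC. The promoter share of reads was 32.6% and 29.3% in M-EPC against 27.8% and 27.6% in OVX-EPC.

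The clustered protocadherins are known for giving neurons their individual surface identity. In the Pcdha and Pcdhg clusters, each gene has its own large first exon with its own promoter, which encodes the extracellular cadherin repeats and is spliced to constant exons shared by the cluster. Pcdhb genes are encoded by a single large exon. Promoter choice involves DNA methylation, the insulator protein CTCF and cohesin, and the H3K9 methyltransferase SETDB1 is known to repress the clusters. Protocadherins outside the clusters are separate genes: Pcdh9, Pcdh10, Pcdh17, Pcdh20, Pcdh8 and Pcdh1 encode adhesion molecules of the delta type, and Pcdh15 encodes a component of the tip links of inner-ear hair cells.

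Sequences of 3 regions outside the clusters show the kinds of DNA that carried the mark. Each line gives the central 300 bases of a region on the plus strand of GRCm38.p6 (mm10), read from RefSeq, with CG dinucleotides in capitals. The first lies in the large coding exon of Pcdh10 (chr3:45380328-45380627), the second is the Pcdh17 region with the smallest p in OVX-EPC against M-EPC (chr14:85143490-85143789, distal intergenic), and the third is the strongest Pcdh15 region (chr10:74448515-74448814, intronic).
Pcdh10: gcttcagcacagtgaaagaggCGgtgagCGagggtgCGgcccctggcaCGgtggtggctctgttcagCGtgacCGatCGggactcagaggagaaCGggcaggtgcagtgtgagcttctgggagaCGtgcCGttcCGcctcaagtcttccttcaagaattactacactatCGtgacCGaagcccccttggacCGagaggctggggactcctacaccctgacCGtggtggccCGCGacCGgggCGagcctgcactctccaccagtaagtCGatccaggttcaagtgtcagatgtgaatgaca
Pcdh17: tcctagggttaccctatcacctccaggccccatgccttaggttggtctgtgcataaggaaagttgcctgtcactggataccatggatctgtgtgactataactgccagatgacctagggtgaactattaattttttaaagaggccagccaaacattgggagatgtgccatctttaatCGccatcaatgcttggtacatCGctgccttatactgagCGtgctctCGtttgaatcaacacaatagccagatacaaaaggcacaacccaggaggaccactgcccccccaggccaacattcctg
Pcdh15: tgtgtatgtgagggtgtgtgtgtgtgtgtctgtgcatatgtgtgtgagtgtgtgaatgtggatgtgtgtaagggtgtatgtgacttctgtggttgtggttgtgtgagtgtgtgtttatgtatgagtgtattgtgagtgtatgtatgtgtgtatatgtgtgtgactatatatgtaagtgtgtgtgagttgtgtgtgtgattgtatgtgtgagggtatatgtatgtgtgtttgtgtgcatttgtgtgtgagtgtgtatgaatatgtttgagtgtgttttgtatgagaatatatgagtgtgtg
The Pcdh10 stretch held 20 CG dinucleotides at 60.7% GC and no base masked as a repeat. The Pcdh17 stretch held 4 at 48.7% GC, with 40.7% of its bases masked. The Pcdh15 stretch, made largely of TG repeats, held 0 at 39.3% GC, with 88% masked. Among all 58011 regions of 400 bases, the median was 4 CG dinucleotides and 19.9% held at least 10. The same minimum was met by 38 of the 43 mostly coding regions of the clusters and by 14 of the 146 regions outside them.

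The clustered genes carried H3K9me3 within their coding exons rather than at their start sites. More than 50% of the bases were coding in 43 of the 59 clustered regions, and 42 regions were entirely coding. This was a share of 72.9%, against 1.53% of all autosomal regions and 4.79% of all autosomal promoter regions. By family, 9 of 10 Pcdha, 18 of 32 Pcdhb and 16 of 17 Pcdhg regions were mostly coding. These 43 regions named 41 genes, so most genes had 1 such region.

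Within the exon the regions lay at a similar place. The authors' annotation labelled 44 of the 59 clustered regions as promoter, a class that reaches 3 kb from a start site. The centre of a mostly coding region lay at a median of 1849.5 bp downstream of the nearest start site of its gene (1760 bp for Pcdhb, 1886.5 bp for Pcdhg and 2055.5 bp for Pcdha). Of the 43 regions, 38 lay between 1500 and 2300 bp, a window that was not planned beforehand. The centre lay beyond the midpoint of the coding exon in 41. Over the 43 regions its median place was at 71.7% of the exon length (median 2403 bp). Only 1 of the 44 promoter-class regions of the clusters (2.27%) was centred within 250 bp of the start site, against 52.3% of the other autosomal promoter regions within 3 kb of their gene's start. The peak caller had set the regions over all libraries before any comparison here, so their position describes where regions were called.

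**Figure D1:**
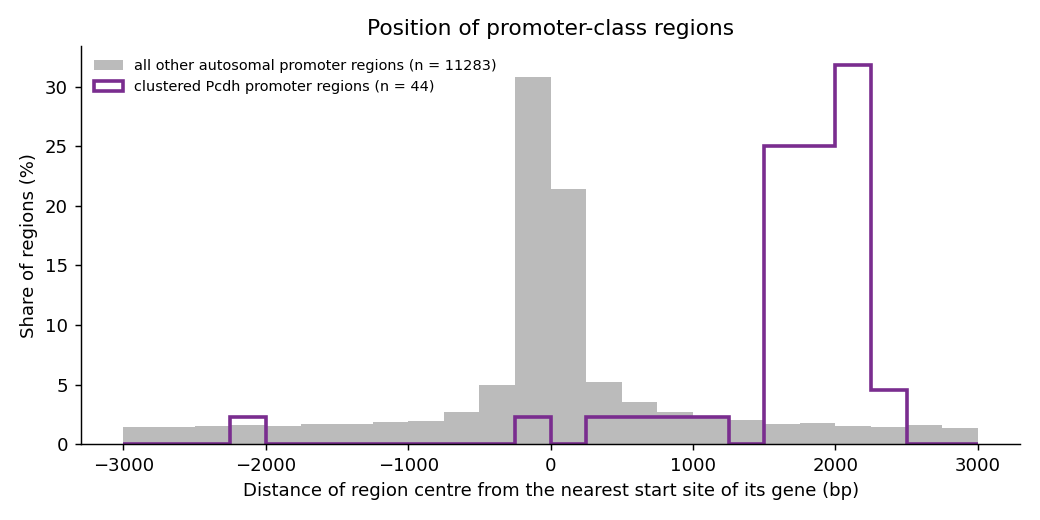
Distance in bp of the region centre from the nearest annotated start site of its gene (horizontal axis) against the share of regions in % (vertical axis), in bins of 250 bp, for 44 promoter-class regions of the clustered protocadherins (line) and 11283 other autosomal promoter regions (grey bars). The clustered regions stand mainly between 1500 and 2300 bp downstream, and the other promoter regions around the start site.

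Regions inside coding sequence were uncommon in the series, and zinc finger genes held more of them than protocadherins. Of 872 mostly coding autosomal regions, 106 were assigned to Zfp genes, 58 to Olfr genes and 44 to Pcdh genes. As a share of each family's own regions, this was 21.5% of the 205 Pcdh, 11.5% of the 924 Zfp and 7.99% of the 726 Olfr regions. The mean signal of the mostly coding regions was lower in the clustered Pcdh genes (16.4 and 13.6 in M-EPC, 13.1 and 14.2 in OVX-EPC) than in the Zfp genes (32.2 and 30.5 in M-EPC, 24.7 and 28.5 in OVX-EPC). This order held in each of the 4 libraries. Here and below, a signal is a read count scaled by the factor of its library.

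**Figure D2:**
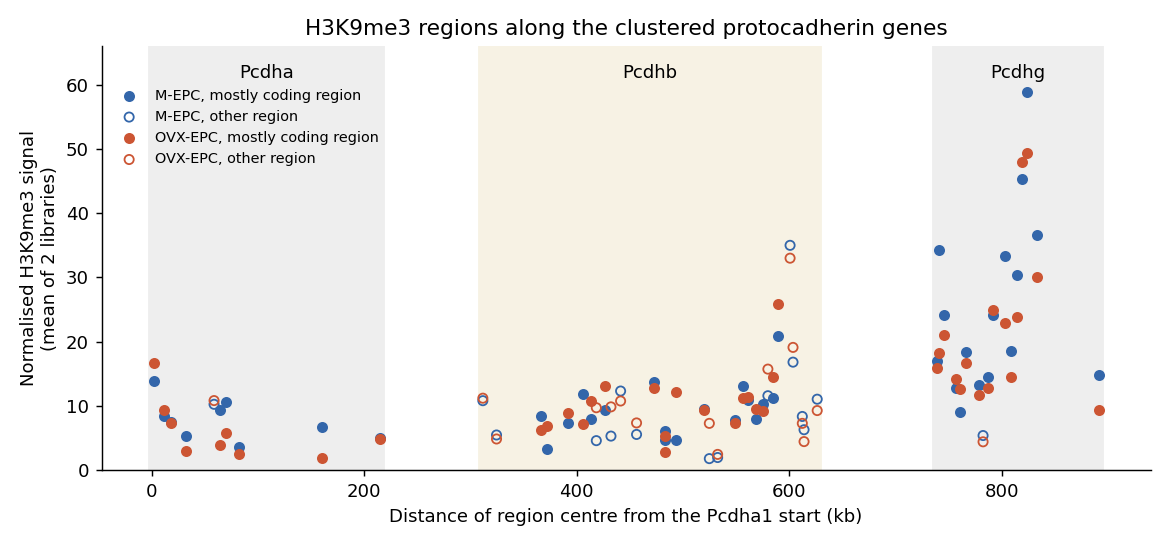
Distance in kb of each of the 59 clustered regions from the Pcdha1 start (horizontal axis) against its normalised H3K9me3 signal (vertical axis, mean of 2 libraries), for M-EPC (blue) and OVX-EPC (red). Filled points are mostly coding regions, open points are the others, and shading marks the 3 families. The strongest regions stand in the Pcdhg cluster in both groups.

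Among the clusters, the level of the mark stepped up by family from Pcdha to Pcdhb and to Pcdhg. The Pcdha regions lay at chr18:36931931-37145505, the Pcdhb regions at chr18:37241726-37556741 and the Pcdhg regions at chr18:37669439-37821506 (mm10). The mean signal per 400 bp of Pcdhg regions was 27.0 and 21.3 in M-EPC against 19.5 and 21.8 in OVX-EPC. Pcdhb regions had 10.1 and 8.91 in M-EPC against 9.87 and 10.8 in OVX-EPC, and Pcdha regions had 7.63 and 8.49 in M-EPC against 7.49 and 5.77 in OVX-EPC. The regions outside the clusters had 3.60 and 4.26 in M-EPC against 5.73 and 5.69 in OVX-EPC. Pcdhg was highest in every library, at 1.97 to 2.67 times Pcdhb (two-sided exact permutation test over the 4 libraries, p = 0.125, the smallest it allows). Pcdhb exceeded Pcdha by 1.05 to 1.88 times, again with an exact p = 0.125, and in M-EPC replicate 2 the 2 families nearly met.

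Across the 43 mostly coding regions, the mean signal and the position along the chromosome had a Spearman rho of 0.78 (Pearson r with log2 signal 0.70). Within single libraries rho was between 0.58 and 0.76. The corresponding rho was 0.15 with the number of CG dinucleotides and 0.31 with GC content. These regions come from the same libraries and are not independent. The families lie in the order Pcdha, Pcdhb and Pcdhg, so the rho with position includes the step between families. It was not computed within a family. From the first to the last mostly coding region, the mean signal went from 15.3 to 4.92 in Pcdha. It went from 7.34 to 23.4 in Pcdhb and from 16.4 to 12.1 in Pcdhg, where Pcdhgb7 between them had 54.1. Clustered genes resemble each other in sequence: a median of 19.4% of the 25-base windows of a clustered region occurred again within the cluster span (highest 78.7%, in Pcdhgb6). Reads of low mapping quality were discarded by the authors, so levels of near-identical genes are uncertain. The rho of signal with this repeated share was 0.11.

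The strongest clustered region lay in the exon of Pcdhgb7 (chr18:37753310-37753709, 99.3rd percentile of mean signal among autosomal regions), with 54 and 66 reads in M-EPC against 48 and 53 in OVX-EPC. Its neighbour Pcdhga10 (chr18:37748855-37749254) had 55 and 35 reads in M-EPC against 50 and 48 in OVX-EPC. All 15 mostly coding regions of the Pcdhga and Pcdhgb genes had a mean signal between 10.8 and 54.1. The C-type genes are expressed by most neurons, while the other members are chosen cell by cell. The signal of the C-type genes was 4.36 in Pcdhac1, 4.92 in Pcdhac2 and 12.1 in Pcdhgc5. These levels were not particular to C-type genes. Pcdha11 had 3.07 and Pcdha5 had 4.14, and Pcdhgc5 lay within the range of the Pcdhga and Pcdhgb regions.

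In the Pcdhb cluster, the strongest region was not coding. It lay 12654.5 bp downstream of the Pcdhb22 start in sequence the authors' annotation called an intron (chr18:37530814-37531213), with 34 and 37 reads in M-EPC against 25 and 43 in OVX-EPC. This region held 0 CG dinucleotides and 96% of its bases were masked as repeats. The coding region of Pcdhb22 itself (chr18:37519868-37520267) had 28 and 13 reads in M-EPC against 26 and 27 in OVX-EPC. The 13 intron-class regions of Pcdhb had a median of 67.25% masked bases and a median of 1 CG dinucleotide. Among the Pcdha genes, Pcdha1 at the start of the cluster was strongest, with 15 and 13 reads in M-EPC against 17 and 17 in OVX-EPC, and the Pcdha8 region in an exon at -3371.5 bp from the Pcdha8 start came next (9 and 12 reads, then 13 and 9).

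No region was listed for Pcdha4, Pcdha6, Pcdha7, Pcdha10 and Pcdha12, for Pcdhb4, Pcdhb12 and Pcdhb13, or for Pcdhga1, Pcdhga8, Pcdhga11, Pcdhga12, Pcdhgb1, Pcdhgc3 and Pcdhgc4. The clusters thus had a region at 9 Pcdha genes, and at 19 of 22 Pcdhb and 15 of 22 Pcdhg genes of the annotation. Outside the clusters, 3 autosomal genes had none: Pcdh7, Pcdh12 and Pcdh18.

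The first comparison was OVX-EPC against M-EPC, and no Pcdh region passed it. Of the 205 regions, 44 had a signal of at least 10 in at least 2 of the 4 libraries and were tested with limma on log2(signal + 1), with Benjamini-Hochberg adjustment over all 16931 regions tested (2 Pcdha, 16 Pcdhb, 16 Pcdhg and 10 outside the clusters). None (0) had an adjusted p below 0.05, where 0.449% of all tested regions did. At an unadjusted p below 0.05 there were 2 Pcdh regions, 4.55% of those tested, against 15.5% of the tested autosomal regions. edgeR on the recovered reads gave 0 adjusted calls and 4 unadjusted ones, and DESeq2 gave 0 and 1. A region could pass the filter through the group in which it was higher, so the tested regions are not a sample of all 205.

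The median log2 fold change of the 44 tested Pcdh regions was 0.05, against -0.17 for all 16616 tested autosomal regions. It was 0.15 for Pcdha, 0.12 for Pcdhb, -0.18 for Pcdhg and 0.46 outside the clusters. Factors from edgeR's TMM method moved the median of all tested autosomal regions to -0.00 and that of the Pcdh regions to 0.17, so the Pcdh regions stood above the general median under both scalings. The Pcdh median was smaller than its own spread between replicates (0.11). It turned to -0.17 without M-EPC replicate 2, to -0.03 without M-EPC replicate 1 and to -0.01 without OVX-EPC replicate 2. In the same order, the median of all tested autosomal regions was -0.26, -0.12 and -0.23. By direction, 10 of 16 Pcdhb, 4 of 16 Pcdhg and 8 of 10 outside regions had a positive value, none of which passed the test.

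The smallest p belonged to the coding exon of Pcdhga2 (chr18:37670617-37671016, 1863.5 bp downstream of the start), with 36 and 33 reads in M-EPC against 20 and 17 in OVX-EPC. Both M-EPC libraries stood above both OVX-EPC libraries, with a log2 fold change of -0.88 (SE 0.30, limma adjusted p = 0.188). A second region of Pcdhga2, nearer to the start (chr18:37669439-37669838), had 19 and 15 reads in M-EPC against 7 and 26 in OVX-EPC, so its groups overlapped. The Pcdhgb5 exon had 31 and 37 reads in M-EPC against 21 and 26 in OVX-EPC (log2 fold change -0.53, SE 0.29, limma adjusted p = 0.36). The Pcdhgc5 exon had 15 and 15 reads, then 10 and 9 (log2 fold change -0.62, SE 0.40, limma adjusted p = 0.43).

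Among Pcdhb genes the smallest p pointed the other way. The Pcdhb11 exon (chr18:37422870-37423665) had 3 and 7 reads in M-EPC against 12 and 13 in OVX-EPC, giving a log2 fold change of 1.25 (SE 0.57, limma adjusted p = 0.28). The Pcdhb6 exon had 12 and 12 reads in M-EPC against 5 and 10 in OVX-EPC (log2 fold change -0.69, SE 0.48, limma adjusted p = 0.47). The Pcdhb22 coding region gave 0.44 (SE 0.35, limma adjusted p = 0.55). In the Pcdha cluster, only Pcdha1 and the upstream Pcdha8 region were tested, with log2 fold changes of 0.26 and 0.05 (limma adjusted p of 0.76 and 0.97).

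Over all 205 regions, filtered or not, 7 clustered regions had both OVX-EPC libraries above both M-EPC libraries and 14 had the reverse. Over all 57159 autosomal regions these shares were 20.6% and 20.5%, and over the 59 clustered regions they were 11.9% and 23.7%. Most clustered regions were of promoter class, and all autosomal promoter regions had 11.4% and 29.99%. The reverse pattern was found in 4 of 10 Pcdha, 3 of 32 Pcdhb and 7 of 17 Pcdhg regions. Summed over a family, the signal of Pcdha was 76.3 and 84.9 in M-EPC against 74.9 and 57.7 in OVX-EPC. The sums were 324.5 and 288.2, then 321.9 and 352.8 for Pcdhb, and 458.8 and 362.3, then 331.0 and 369.8 for Pcdhg. The Pcdha groups did not overlap, and the Pcdhb and Pcdhg groups did. The Pcdha gap rests on the library factors. Unscaled, M-EPC replicate 1 held 71 Pcdha reads and OVX-EPC replicate 1 held 74, at totals of 501237 and 501840 region reads. The log2 ratios of OVX-EPC to M-EPC were -0.28, 0.14 and -0.23, with a pooled replicate SD of 0.20, 0.11 and 0.19 on the log2 scale. Leaving out 1 library moved the Pcdha ratio between -0.48 (without OVX-EPC replicate 1) and -0.11 (without OVX-EPC replicate 2), that of Pcdhb between 0.056 and 0.23 (without M-EPC replicate 2 and 1) and that of Pcdhg between -0.39 and -0.048 (likewise). TMM factors gave -0.12, 0.30 and -0.06. Exact two-sided permutation tests of the sums gave p = 0.33 for Pcdha, the smallest possible with 2 against 2, and 0.667 for Pcdhb and Pcdhg.

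**Figure D3:**
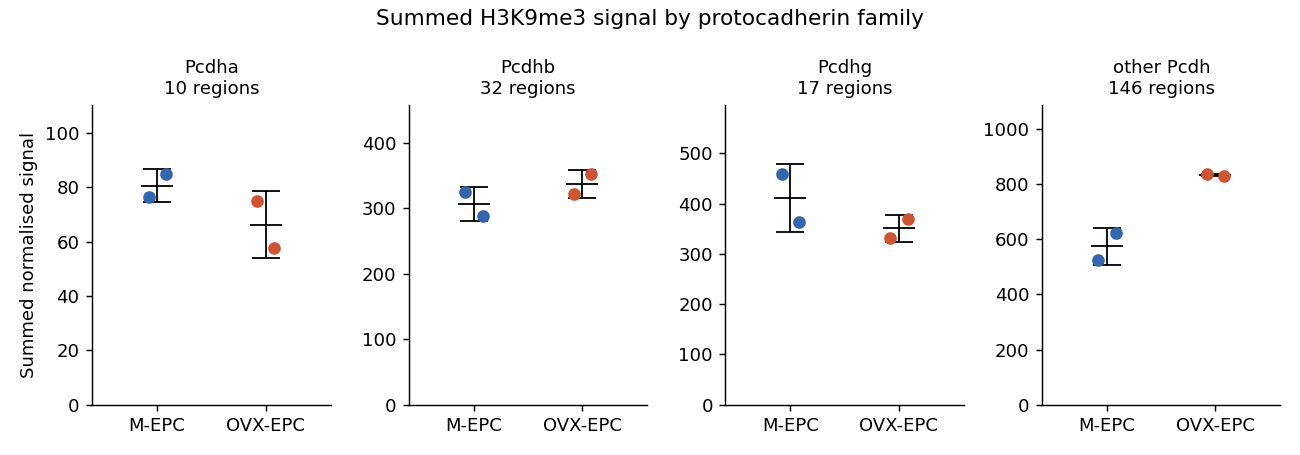
Summed normalised H3K9me3 signal (vertical axes, each starting at 0) of the regions of 4 protocadherin families in the 2 M-EPC and 2 OVX-EPC libraries. Points are libraries, and bars give the mean and SD. The groups overlap for Pcdhb and Pcdhg, and the largest gap is in the genes outside the clusters, at 525.5 and 622.6 against 837.1 and 830.4.

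Regions outside the clusters differed in kind from the clustered ones. Of the 146 regions, 104 were distal intergenic, 38 intronic and 4 promoter regions, and 1 was mostly coding, that of Pcdh10. They had a median GC content of 46.8%, a median of 2 CG dinucleotides and a median of 43.6% masked bases, against 57.5%, 15 and 0% in the clusters. They were weak, with a mean signal between 0.70 and 14.5 and at most 23 reads in a single M-EPC or OVX-EPC library. Pcdh17 had 50 regions, all distal intergenic, from -516.3 to 861.5 kb relative to its start (chr14:83927045-85310231). Pcdh15 had 42 (30 intronic and 12 distal, chr10:72919564-74739724). Pcdh20 had 30, all distal (chr14:88457912-88903774), and Pcdh9 had 19 (11 distal, 7 intronic and 1 promoter, chr14:93512825-94158052). The nearest gene was assigned by the authors' annotation, so the 104 distal regions lie outside the gene they name. Mean signal per region ranged from 2.86 in Pcdh17 (M-EPC replicate 1) to 6.62 in Pcdh15 (OVX-EPC replicate 2) among these 4 genes. Pcdh17 was lowest of the 4 in each of the 4 libraries.

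The summed signal outside the clusters was 525.5 and 622.6 in M-EPC against 837.1 and 830.4 in OVX-EPC. The OVX-EPC libraries were both higher, a log2 ratio of 0.54 with a pooled replicate SD of 0.12 (exact two-sided permutation test, p = 0.33, the smallest possible). Over the remaining autosomal regions the log2 ratio was -0.06, over the rest of chromosome 14 it was 0.06 and over the rest of chromosome 10 it was -0.07. In 62 of the 146 regions, both OVX-EPC libraries stood above both M-EPC libraries, and in 6 both M-EPC libraries stood above. The share of 42.5% compares with 20.6% of all autosomal regions and 26.9% of the other distal intergenic regions no stronger than the strongest of these 146.

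Of the 146 regions, 10 held enough signal to be tested, and none (0) passed with limma or had an unadjusted p below 0.05. The Pcdh17 region printed above had 7 and 4 reads in M-EPC against 11 and 14 in OVX-EPC, without overlap (log2 fold change 1.07, limma adjusted p = 0.32). A Pcdh15 intron region (chr10:74426135-74426534) had 4 and 8 reads, then 11 and 11 (log2 fold change 0.83, limma adjusted p = 0.44). A distal Pcdh20 region (chr14:88642012-88642411) had 6 and 6 reads, then 11 and 11 (log2 fold change 0.77, limma adjusted p = 0.46). The strongest Pcdh17 region (chr14:83983639-83984038) varied more within groups than between them, with 9 and 18 reads in M-EPC against 10 and 23 in OVX-EPC. The TG-repeat region of Pcdh15 had 13 and 12 reads, then 11 and 10.

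Because single regions held few reads, the signal was also summed per gene and the sums of all genes were fitted with limma, an analysis added after the region results were seen. Of 13347 genes, 716 (5.36%) had an adjusted p below 0.05, of which 415 were higher in OVX-EPC and 301 lower. With TMM factors the split was 486 higher and 91 lower, and the median of autosomal genes moved from -0.14 to -0.03. Of 35 Pcdh genes tested, 1 passed: the sum of Pcdh17 rose, over 50 regions that were all distal intergenic and lie outside the gene. The Pcdh17 sums were 142.9 and 178.9 in M-EPC against 260.2 and 243.1 in OVX-EPC. This was a log2 fold change of 0.65 (SE 0.17, limma adjusted p = 0.011). Without M-EPC replicate 1 its limma adjusted p was 0.252, without OVX-EPC replicate 1 it was 0.145 and without OVX-EPC replicate 2 it was 0.070, so the call rests on having all of these libraries. Without M-EPC replicate 2, Pcdh15 and Pcdh9 also passed, with limma adjusted p of 0.046 and 0.022.

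The sums of Pcdh15 were 174.1 and 205.1 in M-EPC against 256.1 and 278.0 in OVX-EPC, with no overlap (log2 fold change 0.50, SE 0.16, limma adjusted p = 0.053). Pcdh20 had 124.6 and 138.3, then 187.3 and 184.4 (log2 fold change 0.50, SE 0.18, limma adjusted p = 0.074). Pcdh9 had 59.1 and 79.5, then 102.2 and 105.9 (log2 fold change 0.59, SE 0.21, limma adjusted p = 0.073). All 3 were past 0.05 with edgeR, and Pcdh15 and Pcdh20 also with TMM factors and with DESeq2. The log2 fold change of these 4 genes was positive in all 10 settings run, between 0.38 and 0.81. In Pcdh9 the gap stood in the 11 distal regions (26.9 and 27.1, then 54.7 and 57.7), while the 7 intronic regions overlapped between groups (32.2 and 46.1, then 43.5 and 47.3). In Pcdh15 it stood in the 30 intronic regions (111.8 and 147.3, then 208.5 and 198.6), while the 12 distal regions overlapped (62.3 and 57.8, then 47.6 and 79.4). In Pcdh17 the 32 upstream regions (98.9 and 127.4, then 169.0 and 176.9) and the 18 downstream regions (44.1 and 51.5, then 91.1 and 66.2) both separated the groups. These splits were chosen after their values were seen and were not tested.

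**Figure D4:**
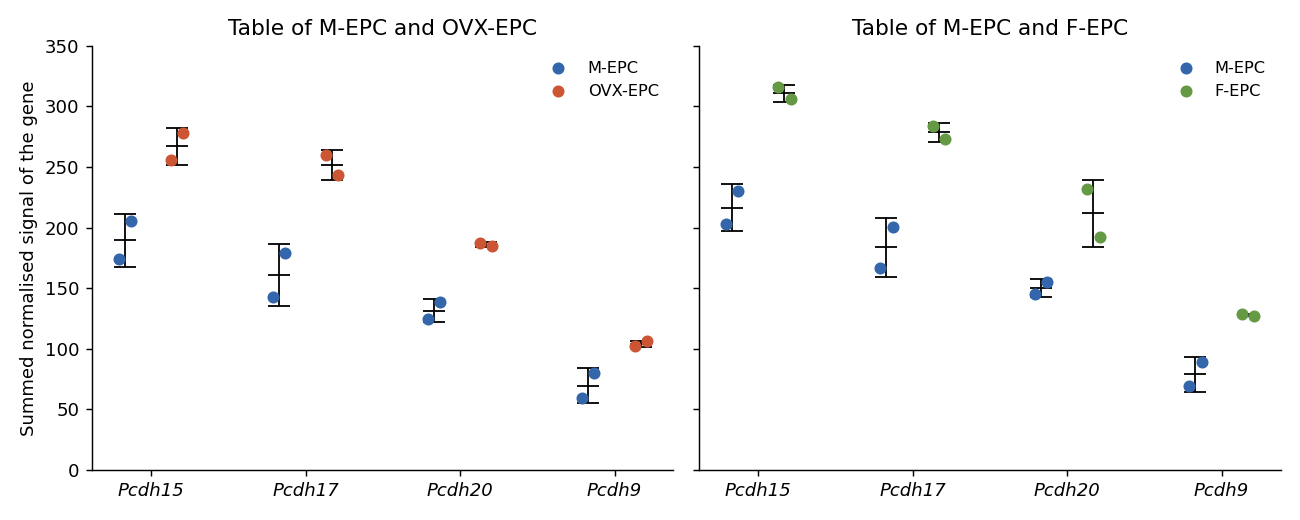
Summed normalised H3K9me3 signal (vertical axis) of Pcdh15, Pcdh17, Pcdh20 and Pcdh9 in the table of M-EPC and OVX-EPC (left) and in that of M-EPC and F-EPC (right), which were scaled separately. Points are libraries, and bars give the mean and SD of 2. In both tables the M-EPC libraries stand below the others for each gene, and the same 2 M-EPC libraries enter both tables.

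This direction was common among genes with many weak regions. Of 361 autosomal genes with at least 15 regions, 29.4% passed the test as higher in OVX-EPC, against 1 of the 4 Pcdh genes of that size. The median log2 ratio of the 313 of these genes with a mean signal under 10 per region was 0.51 (quartiles 0.36 and 0.63), and Pcdh15, Pcdh20, Pcdh9 and Pcdh17 stood at the 46.0th, 46.6th, 67.1st and 78.0th percentile among them. The log2 ratio over the other distal intergenic regions no stronger than the strongest region outside the clusters was 0.17. Over the other intron regions under the same limit it was -0.04, with overlapping groups. Over the other autosomal regions with at least 40% masked bases it was 0.06. The share of reads in promoters was higher in M-EPC, as given above, and its part in these ratios was not tested. The 3 smaller genes had few reads. Pcdh1 had sums of 17.2 and 5.42 in M-EPC against 12.1 and 11.3 in OVX-EPC. The coding-exon region of Pcdh10 printed above had 5 and 6 reads, then 15 and 6, and its other region had 0, 2, 0 and 2. The single Pcdh8 region had 2 and 9 reads in M-EPC against 4 and 0 in OVX-EPC.

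F-EPC against M-EPC asked about sex with the ovaries present, and on the covered chromosomes only genes outside the clusters could be compared. Of 142 covered Pcdh regions 12 were tested and none (0) passed, where 1.79% of the 8139 regions tested did. The count at an unadjusted p below 0.05 was 1, and edgeR and DESeq2 gave 0 adjusted calls with 2 and 1 unadjusted. That region was the TG-repeat region of Pcdh15, with 13 and 12 reads in M-EPC against 6 and 8 in F-EPC (log2 fold change -1.11, limma adjusted p = 0.16). A distal Pcdh20 region (chr14:88591693-88592092) had 9 and 11 reads in M-EPC against 15 and 5 in F-EPC (log2 fold change -0.52, limma adjusted p = 0.53). A distal Pcdh15 region (chr10:72919564-72919963) had 10 and 11, then 20 and 17 (log2 fold change 0.39, limma adjusted p = 0.53). In F-EPC the Pcdh17 region printed above had 10 and 13 reads. These reads are unscaled, and the library factors in this comparison were 0.80 and 0.99 in M-EPC against 1.25 and 1.08 in F-EPC.

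Summed per gene, all 4 genes tested rose in F-EPC. Pcdh15 had sums of 202.6 and 230.1 in M-EPC against 316.0 and 306.1 in F-EPC (log2 fold change 0.52, SE 0.13, limma adjusted p = 0.0069). Pcdh17 had 166.3 and 200.7, then 284.1 and 272.9 (0.61, SE 0.14, limma adjusted p = 0.0033). Pcdh20 had 145.0 and 155.1, then 231.4 and 191.8 (0.49, SE 0.16, limma adjusted p = 0.030). Pcdh9 had 68.8 and 89.2, then 128.5 and 127.2 (0.70, SE 0.19, limma adjusted p = 0.011). No F-EPC library overlapped an M-EPC library for any of the 4, each with an exact two-sided permutation p of 0.33, the smallest possible. The share of other genes that separated in this way was not counted. Of all 5514 genes 11.6% passed (278 higher and 361 lower, 508 higher and 162 lower with TMM factors), and of the 232 genes with at least 15 regions 54.7% passed as higher. Without F-EPC replicate 1, and likewise without F-EPC replicate 2, none (0) of the 4 passed with limma, with adjusted p between 0.120 and 0.511 and 3 and 4 genes, respectively, at an unadjusted p below 0.05. Without M-EPC replicate 1 the limma adjusted p of Pcdh9 was 0.051. The sum over the 142 regions was 585.2 and 684.3 in M-EPC against 968.1 and 898.0 in F-EPC, a log2 ratio of 0.56 with a pooled replicate SD of 0.13 (exact two-sided permutation test, p = 0.33). Because both comparisons use the same M-EPC libraries, their likeness is not independent evidence.

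**Figure D5:**
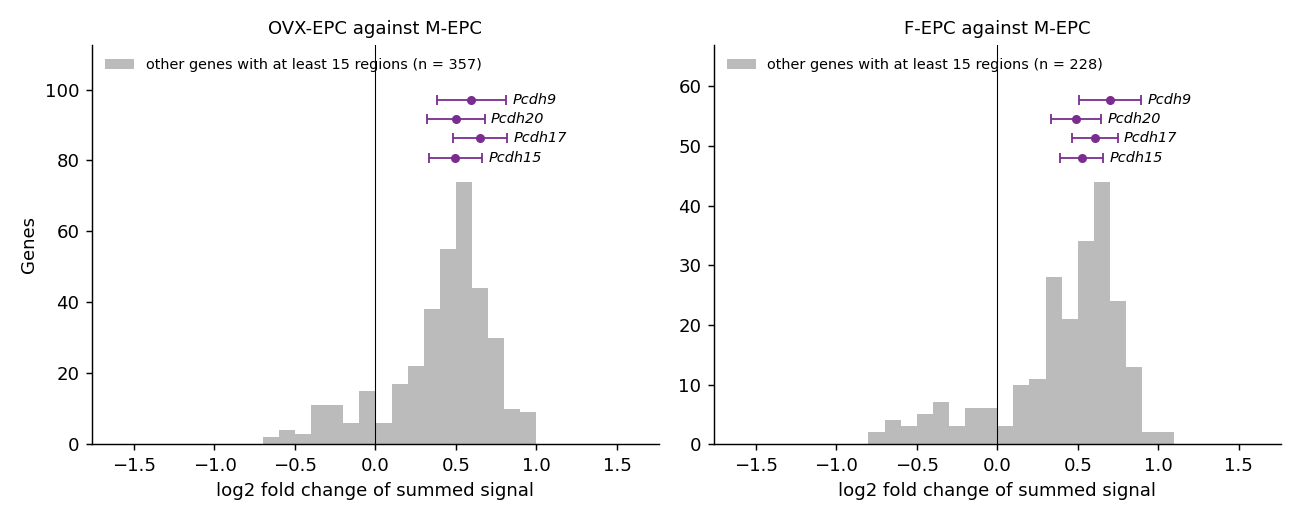
Number of genes (vertical axes) by log2 fold change of summed signal (horizontal axes) for autosomal genes with at least 15 regions other than the 4 protocadherins (grey bars), for OVX-EPC against M-EPC (left) and F-EPC against M-EPC (right). Purple points give Pcdh15, Pcdh17, Pcdh20 and Pcdh9 with their SE, at heights chosen for legibility, and they stand within the main body of the bars in both comparisons.

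OVX-EPC against F-EPC asked about ovariectomy within females. Of 23 Pcdh regions tested, none (0) passed with limma, and none (0) reached an unadjusted p below 0.05 with limma, edgeR or DESeq2. Over all 7897 regions tested 0.0127% passed. The smallest p belonged to the distal Pcdh15 region at chr10:72919564-72919963, with 20 and 17 reads in F-EPC against 5 and 14 in OVX-EPC (log2 fold change -0.72, limma adjusted p = 0.80). A distal Pcdh20 region (chr14:88552287-88552686) had 11 and 9 reads in F-EPC against 11 and 13 in OVX-EPC (log2 fold change 0.56, limma adjusted p = 0.84). Reads are unscaled, and the library factors here were 1.23 and 1.07 in F-EPC against 0.88 and 0.93 in OVX-EPC. By gene sum, none (0) of the 4 genes passed, where 0.0188% of 5307 genes did. The log2 fold changes were -0.07 for Pcdh15 (SE 0.12), 0.01 for Pcdh17 (SE 0.12), -0.03 for Pcdh20 (SE 0.14) and -0.14 for Pcdh9 (SE 0.16), with limma adjusted p between 0.94 and 0.99. The Pcdh9 sums were 130.9 and 128.8 in F-EPC against 114.8 and 120.6 in OVX-EPC, without overlap, and those of the other 3 genes overlapped. The sum over the 142 regions was 986.4 and 909.2 in F-EPC against 909.0 and 923.8 in OVX-EPC, that is a log2 ratio of -0.05 against a pooled replicate SD of 0.06. The difference was thus smaller than the spread between replicates.

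Other members of the cadherin superfamily moved in both directions. The classical and desmosomal cadherins, Fat, Dachsous, Celsr and calsyntenin genes held 277 regions of 36 genes. In OVX-EPC against M-EPC 56 of these regions were tested and 1 fell (1.79%, against 0.449% of all tested regions), at a median log2 fold change of 0.10. An unadjusted p below 0.05 was found for 15 (26.8%, against 15.5% of the tested autosomal regions). The region that fell lay at a promoter of Cdh23, the cadherin that joins PCDH15 in hair-cell tip links (chr10:60303464-60303863), with 61 and 64 reads in M-EPC against 15 and 24 in OVX-EPC (log2 fold change -1.68, SE 0.28, limma adjusted p = 0.0015). No cadherin region passed (0) with DESeq2, which had 3 at an unadjusted p below 0.05, nor with limma without M-EPC replicate 1, M-EPC replicate 2 or OVX-EPC replicate 1 (10, 8 and 8 unadjusted).

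By gene sum in OVX-EPC against M-EPC, 1 of 27 cadherin genes passed (3.70%, against 5.36% of all genes), and which genes passed depended on the scaling. As fitted, Cdh23 fell, from 413.7 and 368.7 to 262.2 and 265.8 (log2 fold change -0.56, SE 0.15, limma adjusted p = 0.013). With TMM factors Cdh23 missed the threshold (limma adjusted p = 0.059) and 2 classical cadherins passed as higher instead, Cdh10 (log2 fold change 0.64, limma adjusted p = 0.032) and Cdh7 (0.69, limma adjusted p = 0.040). edgeR called the same 2 higher and none (0) lower. DESeq2 called Cdh23 lower (adjusted p = 0.045) and Cdh10 higher (adjusted p = 0.032). So did limma on sums scaled to total reads (adjusted p = 0.029 and 0.046). Without M-EPC replicate 1, OVX-EPC replicate 1 or OVX-EPC replicate 2, no cadherin gene passed (0) with limma, with 4, 8 and 4 at an unadjusted p below 0.05.

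In F-EPC against M-EPC, 4 of 11 covered cadherin genes rose and 1 fell (45.5%, against 11.6% of all genes). Cdh10 (log2 fold change 0.67, limma adjusted p = 0.0012), Cdh7 (0.69, limma adjusted p = 0.0060), Cdh18 (0.69, limma adjusted p = 0.0065) and Cdh9 (0.47, limma adjusted p = 0.036) rose, each a gene with at least 15 regions, of which 54.7% passed as higher. Cdh23 fell, with sums of 481.4 and 413.6 in M-EPC against 325.6 and 300.6 in F-EPC (log2 fold change -0.51, limma adjusted p = 0.0029, and 0.058 with TMM factors). None (0) of the 11 passed with limma without F-EPC replicate 1 or F-EPC replicate 2, with 4 and 5 at an unadjusted p below 0.05. In OVX-EPC against F-EPC none (0) passed or had an unadjusted p below 0.05 with limma, edgeR or DESeq2.

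Known regulators of the clustered genes, among them Setdb1, Ctcf and the cohesin subunits, held 37 regions of 15 genes. Of 24 regions tested in OVX-EPC against M-EPC none (0) passed with limma, 2 had an unadjusted p below 0.05, and the median log2 fold change was -0.21. By gene sum, 1 of 15 passed (6.67%, near the 5.36% of all genes). It was Dnmt1, the maintenance DNA methyltransferase, whose single region fell from 21 and 27 reads to 9 and 11 (log2 fold change -1.19, SE 0.38, limma adjusted p = 0.046). With TMM factors its limma adjusted p was 0.087, and leaving out any 1 of the 4 libraries gave between 0.111 and 0.234.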

How the data were processed

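Per the study's methods, 25-base paired-end reads were aligned to mm10 with Bowtie2, duplicates were removed with Picard, reads with a mapping quality below 10 were discarded, and peaks were called with MACS and annotated with HOMER and ChIPseeker. The submitters' processing notes name BWA and MACS2 instead, without versions. The authors deposited 3 tables, 1 per pair of groups, with a normalised signal per region and library. Each signal was a whole number of reads (within 1e-06 reads, for 100% of values) divided by 1 factor per library and table, so the reads were recovered. Columns of the authors' fold changes and p-values were not used.

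Regions with a signal of at least 10 in at least 2 libraries were fitted with limma 3.58.1 (trend) on log2(signal + 1), with Benjamini-Hochberg adjustment over all regions tested and a threshold of 0.05. A fold change on this scale understates that of low regions. Gene sums were fitted in the same way. Alternatives were other filters, a pseudocount of 0.1, TMM factors, scaling to total reads, edgeR 4.0.16, DESeq2 1.42.0, a replicate block and leaving out each library. Sums were compared with exact permutation tests (scipy 1.17.1). Only the limma region fit of OVX-EPC against M-EPC was tried on simulated data first, with 200 better-covered regions changed. The gene sums, edgeR and DESeq2 were not tried in this way. Coding sequence and start sites came from GENCODE M21, and sequence and soft-masking from the GRCm38.p6 assembly. Libraries held 501237 to 573821 region reads in M-EPC and OVX-EPC, which leaves most Pcdh regions at few reads each.

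Every Pcdh gene was accounted for. Reads per library were given, in each family, for called regions, the 3 with the smallest p and the 2 with the highest mean, and on covered chromosomes for the 3 with the smallest p in each F-EPC comparison. Pcdhga2's second region, the C-type genes and the cadherin and regulator genes with values were chosen after their values were seen. The members, lists and tests were chosen with earlier results of these data known.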

Additional observations from a re-analysis of the deposited data

Results flagged for a closer look

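The X-linked protocadherins, left out of the comparisons above, stood higher in OVX-EPC than in M-EPC. Pcdh19, a delta protocadherin known for a sex-linked epilepsy, held 2 and 7 reads in its 3 promoter regions in M-EPC against 43 and 51 in OVX-EPC. This was a log2 ratio of summed signal of 3.44. Only 1 X-linked Pcdh region had enough signal to be tested, and it met the filter through OVX-EPC (chrX:133687151-133687550, 0 and 4 reads, then 22 and 26). This Pcdh19 region passed limma over all regions, with a log2 fold change of 3.51 (SE 0.74, adjusted p = 0.023). Of all tested regions 0.449% passed, and the share among X-linked regions was not counted. Pcdh11x held 1 and 4 reads in its 2 regions in M-EPC against 4 and 16 in OVX-EPC, that is a log2 ratio of 2.03, but the lower OVX-EPC library held as many reads as the higher M-EPC library. The share of all reads on the X chromosome was 1.20% in both M-EPC libraries and 2.40% and 2.43% in OVX-EPC, and its part in these values was not tested.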

How the results depend on the processing

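No autosomal Pcdh region passed in any of the 3 comparisons under any alternative that could be run. A minimum of 30 left no covered Pcdh region in the F-EPC comparisons. Of the Pcdh genes by summed signal in OVX-EPC against M-EPC, 1 passed as reported, 0 with the replicate block, 3 with TMM factors, 2 scaled to total reads, 4 with edgeR, 3 with DESeq2 and 0 to 3 without a library. In F-EPC against M-EPC, 4 passed as reported, 3 with the replicate block and 0 to 4 without a library. The labels link same-numbered libraries by their number only, and whether these shared a preparation was not tested. Their deviations correlated at -0.02, -0.05 and -0.03 in the 3 comparisons. In OVX-EPC against M-EPC the summed signals of Cdh23 and Dnmt1 also missed the threshold with the block (limma adjusted p = 0.095 and 0.072). In F-EPC against M-EPC Cdh9 missed it with the block, while Cdh10, Cdh18, Cdh7 and Cdh23 still passed (for Cdh23, limma adjusted p = 0.011). No other call of a Pcdh region or gene changed. The median over tested Pcdh regions of 0.05 became 0.27 with no filter, -0.18 with a minimum of 30, 0.17 with TMM factors and -0.17 to 0.10 without a library. The summed Pcdhb ratio turned to -0.085 with a minimum of 30, which left 1 region. The sum outside the clusters in OVX-EPC against F-EPC ran from -0.11 to 0.011 without a library, the highest without F-EPC replicate 1. The causes were not tested.

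The counts over all regions moved as well. In OVX-EPC against M-EPC 76 passed as reported, 145 with no filter, 123 with a minimum of 30, 40 with a pseudocount of 0.1 or TMM factors, 139 with edgeR, 8 with DESeq2 and 0 to 23 without a library. In F-EPC against M-EPC 146 passed, 231 with no filter, 22 with TMM factors, 4 with DESeq2 and 0 to 181 without a library. In OVX-EPC against F-EPC 1 passed, 0 with a minimum of 30, DESeq2 or the block, and 0 to 16 without a library. Of genes, 716 passed in OVX-EPC against M-EPC, 374 with the replicate block, 192 with DESeq2 and between 125 and 978 without a library. In F-EPC against M-EPC 639 passed, 227 with DESeq2 and 87 to 1029 without a library. In OVX-EPC against F-EPC 1 gene passed, 0 with DESeq2 and 0 to 10 without a library. Most Pcdh regions held too few reads to be tested singly.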
